A study of Rattus norvegicus with 21 samples.

Results

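NS398 inhibits the cyclooxygenases and acts preferentially on cyclooxygenase 2. Its effect on gene expression in rat spinal cord cultures was read from 3 of the 21 arrays of a study on anti-inflammatory compounds in spinal cord injury. The 3 arrays were chosen by their titles, and no measured value entered the choice. On each of them, RNA of cord cultured with NS398 for 4 hr was set beside RNA pooled from cord cultured for 4 hr with DMSO, the vehicle. For comparison, 3 Injured 4 hr arrays set unpooled cultures treated with PBS beside a pool of such cultures. The other treatments gave 3 arrays each, all after 4 hr of culture. CKIN, MP and acetaminophen (Acet) cultures were set beside a PBS pool, and indomethacin (Indo) cultures beside a pool of cultures treated with ETOH, the label's abbreviation for ethanol. CKIN and MP stand in the labels as letters alone. The 3 Uninjured arrays, of freshly dissected cord, entered only the estimate of the spread. Every treated and vehicle sample was cultured cord, so dissection and culture are shared by both sides of each ratio. The labels name no dose, strain, sex, age or number of animals per sample.

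Cyclooxygenases turn arachidonic acid into the precursor of the prostaglandins, prostacyclin and thromboxane. Ptgs1 encodes the form that most tissues make at rest, and Ptgs2 the form that cytokines and injury induce. Cut nervous tissue is known to release chemokines within hours. Ccl2 draws monocytes, and Cxcl1 and Cxcl2 draw neutrophils. Many of these genes, Ptgs2 among them, are known targets of the transcription factor NF-kB.

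Each value is a log2 ratio of culture over pool with the median probe of its array set to 0. Culture over pool is the order of the titles, a likely direction that no label states. A ratio holds no expression level, so the tissue label could not be checked from it. Values on at least 2 NS398 arrays were present for 41 of 44 probes of neuronal genes, 16 of 17 of myelin genes and 20 of 21 of astrocyte genes. Over the whole array 4486 of 5376 probes were tested on that condition, so a measurable spot does not identify the tissue. Without the centring, the median probe would stand at -0.98 over the 3 NS398 arrays, so every direction below is relative to the median probe. A corrected ratio was also computed, from which the trend with the Injured 4 hr ratio and the differences between source plates were removed. A gene was said to have passed at a Benjamini-Hochberg adjusted p under 0.05 in limma, and only then is it said to have risen or fallen. Each value after ± is limma's standard error (SE), from a spread estimated over all 21 arrays. It is not the SE of the 3 values printed beside it, and n counts the NS398 arrays. The DMSO pool is 1 control sample, and its own spread is outside every test against it. The NS398 arrays themselves were uneven. They measured 3638, 4458 and 4703 probes, their deposited medians were -0.14, -0.89 and -1.62, and their centred Gapdh ratios were 0.41, 1.33 and 2.30 on replicates 1, 2 and 3. In bulk cultures, fewer cells of a type and less RNA per cell cannot be told apart.

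The leading change in NS398 cultures was a rise of inflammatory chemokines and of Ptgs2, the gene for the enzyme that NS398 inhibits. Ccl2, measured by 2 probes, Cxcl1 and Ptgs2 stood higher on every NS398 array than on each array of the other treatments and of the Injured 4 hr group that measured them. The promoters of the genes that rose together are shown so that their sequence can be read beside their values. The tables used here held 3 of the 4 chemokine and Ptgs2 genes, Cxcl1, Cxcl2 and Ptgs2. The sequences are the 250 bases before the start of each gene on its own strand, 5′ to 3′, from RefSeq in build GRCr8. Capitals mark every match, on either strand, to 5 motifs: the NF-kB consensus, TATAAA, the AP-1 motif TGANTCA, the cyclic AMP element TGACGTCA and the E-box CACGTG.
Cxcl1, chr14:17479322-17479571, minus strand: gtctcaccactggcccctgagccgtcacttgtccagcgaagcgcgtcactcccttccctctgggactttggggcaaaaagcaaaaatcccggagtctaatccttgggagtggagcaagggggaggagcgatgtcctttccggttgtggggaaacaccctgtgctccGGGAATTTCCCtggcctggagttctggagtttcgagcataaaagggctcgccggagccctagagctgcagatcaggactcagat
Cxcl2, chr14:17467256-17467505, minus strand: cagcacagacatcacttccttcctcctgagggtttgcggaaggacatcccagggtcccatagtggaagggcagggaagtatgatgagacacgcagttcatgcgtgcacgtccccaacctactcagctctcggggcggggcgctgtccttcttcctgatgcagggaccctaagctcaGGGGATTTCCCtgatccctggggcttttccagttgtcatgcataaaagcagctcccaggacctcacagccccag
Ptgs2, chr13:64713813-64714062, plus strand: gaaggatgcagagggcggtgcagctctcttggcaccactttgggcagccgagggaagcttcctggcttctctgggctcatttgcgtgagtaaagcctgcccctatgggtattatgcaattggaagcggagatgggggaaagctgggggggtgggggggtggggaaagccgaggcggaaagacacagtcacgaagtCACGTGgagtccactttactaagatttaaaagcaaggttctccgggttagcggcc
The capitals in Cxcl1 are 2 overlapping NF-kB matches, from 84 to 74 bases before the start. Those in Cxcl2 are likewise 2 overlapping NF-kB matches, from 74 to 64 bases before it. In Ptgs2 the only match was the E-box, from 55 to 50 bases before the start. Among 33465 promoters of the same length, 3.54% held the NF-kB consensus and 5.59% the E-box. A match is a description of the letters, not a site of binding.

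Ccl2 read 3.51, 4.21 and 4.68 on NS398 replicates 1, 2 and 3 by probe 26C01. The same probe read 0.82, 0.91 and 0.43 on the Injured 4 hr arrays and from -1.35 to 1.18, with a median of 0.02, on the 12 arrays of the other treatments. The NS398 arrays overlapped neither set. The mean of 4.13 ± 0.35 (SE, n = 3), a 17.6-fold ratio, passed against the DMSO pool (limma adjusted p = 1.5e-07). It exceeded Injured 4 hr by 3.42 ± 0.49 (limma adjusted p = 0.00094) and the mean of the other treatments by 4.13 ± 0.38 (limma adjusted p = 1.5e-07). The second Ccl2 probe, 52C04, read 2.47, 3.21 and 3.77 and also passed all 3 comparisons.

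Cxcl1 read 3.50, 4.37 and 4.26 in NS398 cultures, against 1.43, 1.80 and 0.72 in Injured 4 hr cultures. On 11 arrays of the other treatments it ran from -1.01 to 2.13, the highest on MP replicate 2. The groups did not overlap. Its mean was 4.04 ± 0.38 (SE, n = 3), which exceeded Injured 4 hr by 2.72 and the other treatments by 3.92 (limma adjusted p = 0.0095 and 2.2e-06).

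Ptgs2 read 2.91, 3.48 and 3.38 in NS398 cultures and 1.15, 1.25 and 0.85 in Injured 4 hr cultures. It lay between -0.71 and 1.47 on the 10 arrays of the other treatments that measured it, all below the NS398 values. The mean of 3.26 ± 0.27 (SE, n = 3) exceeded Injured 4 hr by 2.17 (limma adjusted p = 0.0062). CKIN had a single Ptgs2 value, so the difference from the mean of the other treatments was not tested. Cxcl2 read 2.28, 2.67 and 3.11 and rose by 2.69 ± 0.40 (SE, n = 3), but Acet replicate 2 reached 2.53, within the NS398 range. Its excess over the other treatments passed at 1.98 (limma adjusted p = 0.012, and 0.08 without NS398 replicate 3), while that over Injured 4 hr, 1.13, did not (limma adjusted p = 0.25). In these comparisons the calls of both Ccl2 probes, Cxcl1 and Ptgs2 kept their direction and their side of the threshold in each alternative run.

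**Figure D1:**
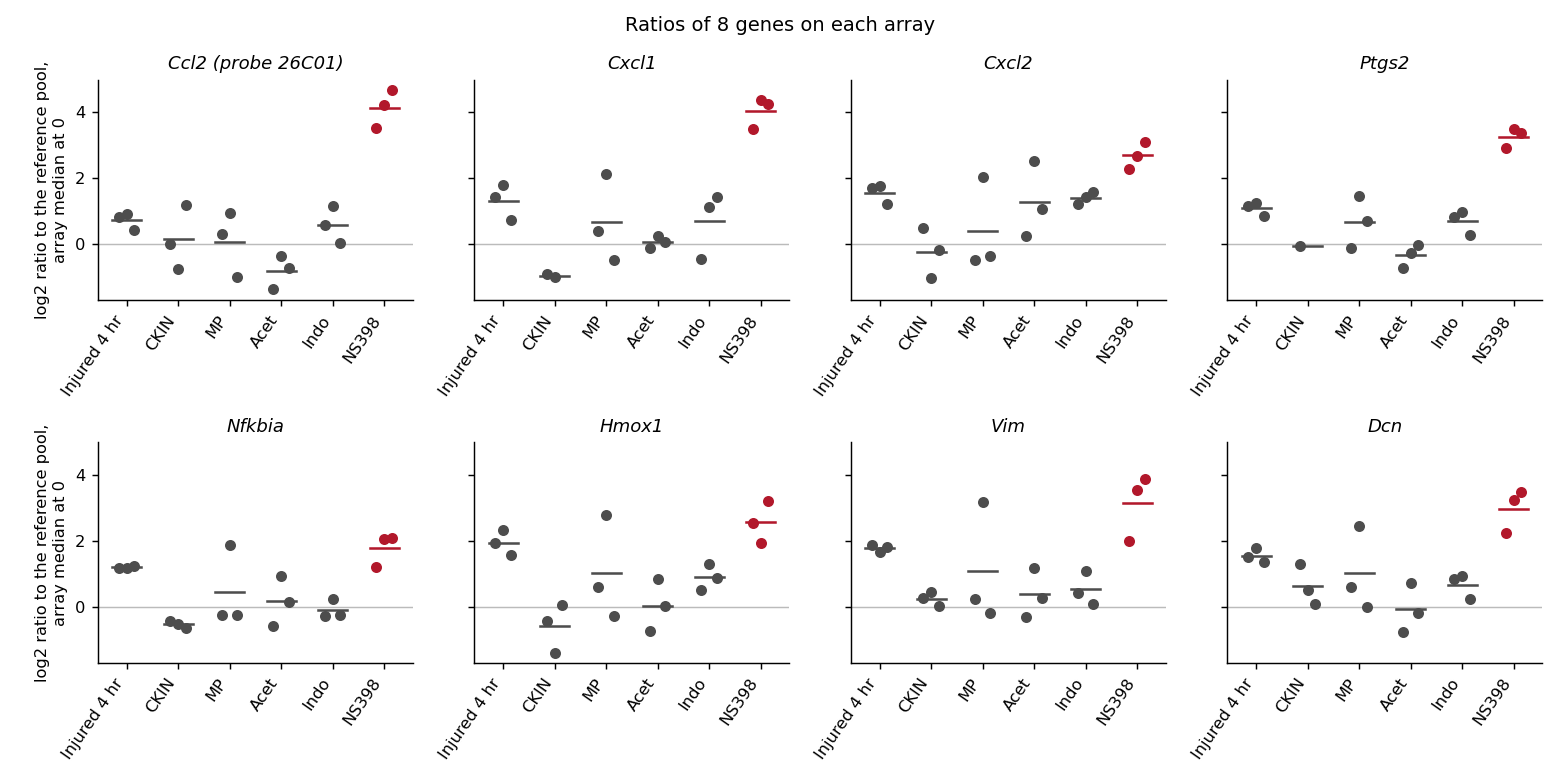
Centred log2 ratios (vertical axes) of 8 genes on each array of 6 groups; points are arrays and short lines group means, NS398 in red. The NS398 points of Ccl2, Cxcl1 and Ptgs2 lie above every other point, from 2.91 to 4.68, while those of Nfkbia, Hmox1, Vim and Dcn overlap single arrays of other groups.

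Other cytokines moved less or not at all. Of 45 tested probes of cytokines and chemokines, 12 were higher and 4 lower against the DMSO pool, beside 10% and 11.3% of all tested probes, and the median probe was 0.23 beside -0.04 for all. Csf3, a granulocyte growth factor, read 2.16, 1.18 and 1.62 and rose against the pool and against Injured 4 hr, by 1.65 and 1.52 (limma adjusted p = 0.00013 and 0.024, the latter 0.086 without NS398 replicate 1). Il1a, an early cytokine of injured tissue, read 0.98, 0.73 and 0.99 and rose by 0.90 ± 0.24 (SE, n = 3), a call lost without replicate 3 (limma adjusted p = 0.056). The macrophage chemokine Ccl4 rose by 1.30, and the interferon-induced Cxcl10 by 0.93, but in corrected ratios they were 0.35 and 0.27 and did not pass. The Ccl4 call was also lost with any 1 NS398 array left out, and that of Cxcl10 without replicate 1. Ccl5, a chemokine for T cells, read 2.64 and 0.49 on replicates 1 and 3 and passed on those values alone. The other classical inflammatory cytokines did not pass. Il6 read -0.11, 0.85 and 1.85, Tnf read -0.37, -1.34 and 1.00, and the Il1b probe with values on each array read 0.57, 0.78 and 0.65. The 4 lower probes were those of Il7, a lymphocyte growth factor, of Tgfb3 and Tgfb2, anti-inflammatory growth factors, and of Csf1, a macrophage growth factor, at -1.96, -0.97, -1.12 and -0.88. Those of Tgfb3 and Csf1 were lost when single NS398 arrays were left out, and a second Tgfb2 probe, at 0.68, did not pass. Against the other treatments, 5 of 35 probes were higher and 0 lower, beside 1.46% and 0.992% of all tested probes. These were the 2 Ccl2 probes, Cxcl1, Cxcl2 and Il1a, at 1.01 for Il1a (limma adjusted p = 0.048, and 0.13, 0.11 or 0.17 without NS398 replicate 1, 2 or 3).

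Among genes for prostanoid enzymes, Ptgs2 stood apart from the rest of the pathway. Of 14 probes, 3 rose and 3 fell against the DMSO pool, beside 10% and 11.3% of all tested probes. The list's median was -0.34, and -0.05 in corrected ratios, beside -0.04 for all tested probes. Ptgds, which makes prostaglandin D and is abundant in the meninges, read 0.96, 2.45 and 4.30, a mean of 2.57 ± 0.54 (SE, n = 3). It overlapped the other treatments, which reached 3.68. Akr1b1, an aldose reductase that also acts on prostaglandins, rose by 1.47. Ptges, the inducible enzyme that makes prostaglandin E downstream of Ptgs2, fell by 1.46 and read -0.81, -1.31 and -2.25. It was also low on the 12 arrays of the other treatments, from -3.33 to -1.40, and near 0 on the Injured 4 hr arrays, at -0.36, 0.22 and -0.29. Its difference from Injured 4 hr was -1.31 (limma adjusted p = 0.12), and without NS398 replicate 3 the call against the pool was lost (limma adjusted p = 0.068). Ptgis, the prostacyclin synthase, fell by 1.50 on 2 arrays that read -0.78 and -2.22.

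The 2 probes of Ptgs1, which encodes the other cyclooxygenase, disagreed. Probe 52H12 read -0.91, 0.40 and -0.62 and did not pass, while probe 18A08 passed on values of -0.17 and -4.07, with none on replicate 1. Of 9 probes for prostanoid receptors and transport, 0 rose and 1 fell, beside 10% and 11.3% of all tested probes. The fallen probe was that of Ptgfrn, a binding partner of the prostaglandin F receptor, at -0.96. The receptors for prostaglandin E that were tested, Ptger2, Ptger3 and Ptger4, were at -0.21, -0.41 and -0.52 and did not pass. Cyclic AMP is the second messenger of several of these receptors. Of 28 probes of genes that it induces, 0 rose and 3 fell, beside 10% and 11.3% of all tested probes. In corrected ratios 2 were higher and 2 lower, beside 4.92% and 7.97% of all.

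Several inhibitors and early targets of inflammatory signalling were higher as well. Of 15 probes for NF-kB components and targets, 6 rose and 1 fell, beside 10% and 11.3% of all tested probes, with a median of 0.42. In corrected ratios 4 were higher and 1 lower, beside 4.92% and 7.97% of all. Nfkbia, the inhibitor that NF-kB itself induces, read 1.20, 2.06 and 2.10 and rose by 1.78 ± 0.33 (SE, n = 3). On the other treatments it ran from -0.64 to 1.89 with a median of -0.25, and only MP replicate 2 came within the NS398 range. The excess over them was 1.78 (limma adjusted p = 0.0068, and 0.056 or 0.055 without NS398 replicate 2 or 3). On the Injured 4 hr arrays Nfkbia was at 1.17, 1.19 and 1.25, and the difference from them, 0.58, did not pass. Nfkb1, a subunit of NF-kB, Zfp36, which destabilises cytokine transcripts, and Sod2, a mitochondrial superoxide dismutase, rose against the pool by 1.04, 1.91 and 1.54. Nfkb1 also exceeded the other treatments, by 1.18 (limma adjusted p = 0.045), but that call was lost with any 1 NS398 array left out, and its call against the pool without replicate 2 or 3. Sele, an endothelial adhesion molecule, fell by 1.18 on 2 arrays that read -2.05 and -0.30.

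Of 28 early response probes, 5 rose and 1 fell, beside 10% and 11.3% of all tested probes. Against Injured 4 hr, 0 of the 28 were higher and 1 lower, beside 0.404% and 3.12% of all tested probes. Atf3, a stress-induced transcription factor, read 1.60, 2.15 and 2.00, above the 12 other treatment arrays, of which the highest was 1.30. Its excess over them was 1.45 (limma adjusted p = 0.0081, and 0.063 without NS398 replicate 2). Myc, a growth-promoting transcription factor, was the other of 22 tested early response probes to exceed them, by 1.60 (limma adjusted p = 0.013, and 0.058 or 0.08 without replicate 2 or 3), while its ratio to the DMSO pool was 0.52 and did not pass. Dusp1, a phosphatase that switches off MAP kinases, and Egr1, a transcription factor, rose by 1.82 and 1.51 and overlapped the other treatments. Irf1, an interferon-regulated transcription factor, is in neither list and was chosen after its values were seen. It read 1.23, 1.74 and 1.17 and exceeded the other treatments by 1.47 (limma adjusted p = 0.0063, and 0.063 without replicate 2).

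Heat shock genes rose against the pool in 11 of 27 probes and fell in 1, beside 10% and 11.3% of all tested probes. Their median was 0.69. In corrected ratios the median was 0.02, and 3 probes were higher and 3 lower, beside 4.92% and 7.97% of all tested probes. Hmox1, which degrades haem under oxidative stress, read 2.53, 1.94 and 3.20 and rose by 2.56 ± 0.41 (SE, n = 3). Hspa1b and one probe of Hspa1a, inducible chaperones, rose by 1.98 and 1.84, and the other Hspa1a probe, at 0.88, did not pass. The 3 risen probes were also the 3 of 26 that exceeded the other treatments, by 2.22, 1.54 and 1.67, beside 1.46% of all tested probes. Against Injured 4 hr their differences were 0.61, 0.04 and 0.30, and none of them passed (limma adjusted p = 0.59, 0.97 and 0.77). Without NS398 replicate 3 each lost its call against the other treatments, and without replicate 2 both chaperones did.

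Antioxidant genes rose against the pool in 9 of 32 probes and fell in 2, beside 10% and 11.3% of all tested probes, with a median of 0.36. In corrected ratios 4 were higher and 3 lower, beside 4.92% and 7.97% of all tested probes, with a median of 0.06. Txnrd1, a thioredoxin reductase, read 1.28, 2.13 and 2.40, and the highest of 3 probes of Mt1, a metal-binding protein induced by stress, read 1.15, 2.09 and 2.57. Like Gapdh and the ribosomal genes below, both were lowest on replicate 1 and highest on replicate 3. The same order held for both Ccl2 probes, Cxcl2, Ptgds, Nfkbia, Vim, Dcn and Mgp. Cxcl1, Ptgs2 and Atf3 were lowest on replicate 1 too, but highest on replicate 2. Gstp1, a glutathione transferase, fell by 1.97 and read -2.02, -2.39 and -1.50. In corrected ratios Mt1 was at 0.61 and Gstp1 at -0.79, and neither passed. Against the other treatments 0 of 26 antioxidant probes passed in either direction, and in corrected ratios 2 were higher, beside 2.46% higher and 2.24% lower, or 4.70% together, of all tested probes.

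Genes of meninges and connective tissue gave the highest count of probes above the other treatments among the 38 lists. Of 28 probes, 7 were higher and 1 lower, beside 1.46% and 0.992% of all tested probes. The median was 0.48 beside 0.03 for all tested probes. Vim, an intermediate filament of fibroblasts and reactive astrocytes, read 2.00, 3.53 and 3.88. The other treatments ran from -0.31 to 3.19 with a median of 0.27, and MP replicate 2 alone reached the NS398 range. Dcn, a matrix proteoglycan, read 2.23, 3.22 and 3.49, and Mgp, a matrix protein that inhibits calcification, read 2.33, 3.06 and 3.14. Mgp was above each of the 12 other arrays, and Dcn above 11 of them. The excess over the other treatments was 2.58 for Vim, 2.42 for Dcn and 2.50 for Mgp (limma adjusted p = 0.0025, 0.00061 and 0.00061).

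Igfbp2, a binding protein of insulin-like growth factors, Col1a2, a chain of type I collagen, and Timp1, an inhibitor of matrix metalloproteases, exceeded the other treatments by 2.24, 2.34 and 2.32. Igfbp6, a related binding protein, did so by 1.31 while its ratio to the DMSO pool was -0.17. The ratios of Igfbp2, Col1a2 and Timp1 to the DMSO pool were 2.32, 1.72 and 0.98. That call of Timp1 was lost without NS398 replicate 2 or 3 (limma adjusted p = 0.17 and 0.23). Lox, which crosslinks collagen, was the lower probe, at -1.12. Col1a2, Timp1, Igfbp6 and Lox are named here after their values were seen, as the probes that make up the count. The Igfbp6 call was lost without NS398 replicate 3 (limma adjusted p = 0.11) and that of Lox without replicate 1 (limma adjusted p = 0.15). Against the DMSO pool, 9 of 36 probes of the list rose and 3 fell, beside 10% and 11.3% of all tested probes. Against Injured 4 hr, 0 of 36 passed in either direction, beside 0.404% higher and 3.12% lower of all tested probes, and the differences of Vim, Dcn and Mgp were 1.36, 1.43 and 1.52 (limma adjusted p = 0.21, 0.11 and 0.098). Other genes above the other treatments included Pmp22, a protein of peripheral myelin, S100a6, a calcium-binding protein of fibroblasts, Cubn, an endocytic receptor, and Plat, the tissue plasminogen activator. Their excess was 2.95, 2.41, 2.58 and 1.59, and the Plat call was lost without NS398 replicate 2 or 3. The arrays MP replicate 2 and Acet replicate 2 gave the highest of the other treatments' values for 31 of the 47 probes higher in NS398, and for 1511 of 3227 tested probes. The part of this in the result was not tested.

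**Figure D2:**
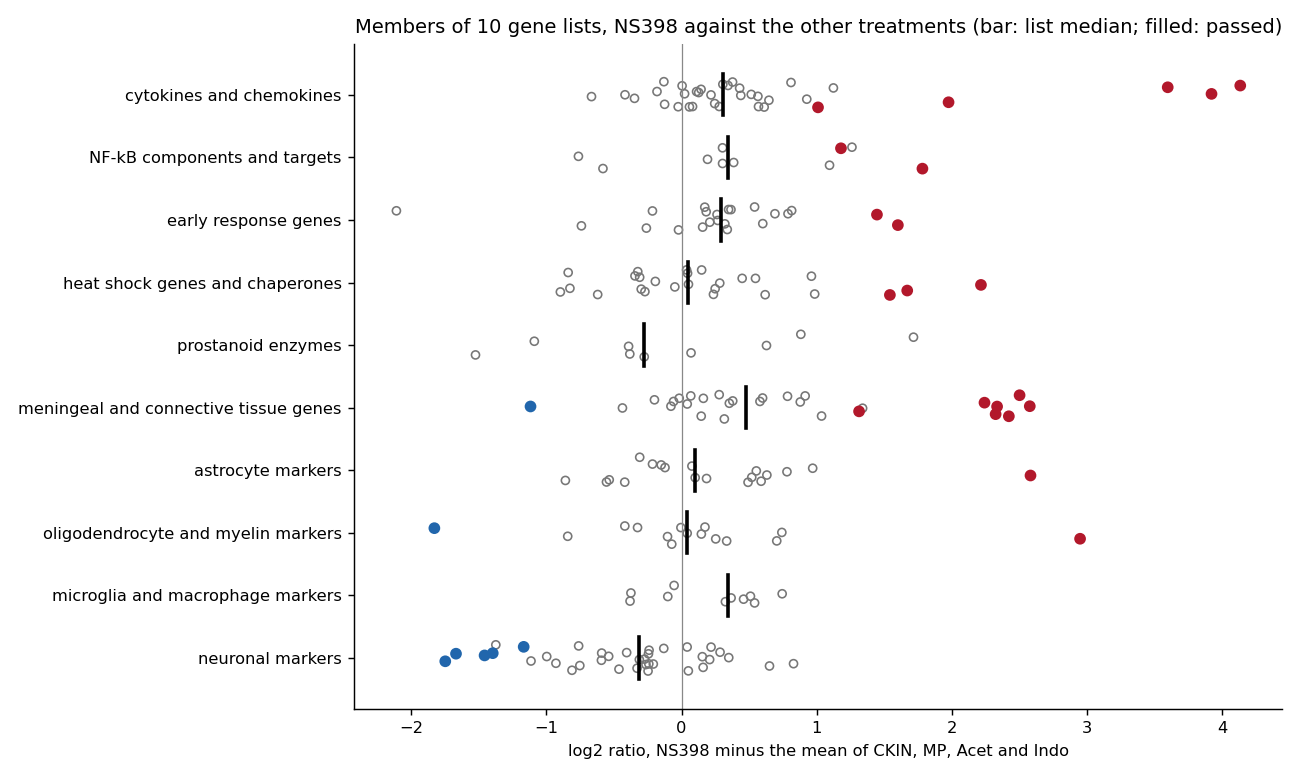
Each point is a probe of one of 10 gene lists, placed by its log2 ratio in NS398 minus the mean of CKIN, MP, Acet and Indo; filled points passed and black bars are list medians. Cytokine and connective tissue genes extend to the right, and the 5 filled neuronal points lie between -1.75 and -1.17.

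Neuronal genes lay on the other side of the same comparison. Of 37 probes, 0 were higher and 5 lower than in the other treatments, beside 1.46% and 0.992% of all tested probes, with a median of -0.31. The 5, named after their values were seen, were Nefm and Prph, neurofilament and peripheral intermediate filament proteins, and Vamp1, Syp and Sncb, proteins of synaptic terminals, at -1.75, -1.67, -1.46, -1.40 and -1.17. Nefm read -1.48, -0.39 and 0.62 on the NS398 arrays. Against Injured 4 hr, 5 of 41 were lower and 0 higher, beside 3.12% and 0.404% of all tested probes, with a median of -0.82 beside -0.27. These were Nefm at -2.18, Snap25, a synaptic fusion protein, at -2.09, Thy1, a neuronal surface protein, at -1.88, Vamp2 at -1.37 and 1 of 2 probes of Gad1, which makes GABA, at -1.26. The low median is not particular to neuronal genes. Against Injured 4 hr it was -1.04 for myelin, -1.02 for oxidative phosphorylation and -0.79 for ribosomal genes. In those lists 1 of 16, 1 of 33 and 1 of 69 probes were lower. Against the DMSO pool itself, 5 of the 41 rose and 0 fell, beside 10% and 11.3% of all tested probes, with a median of 0.26. In corrected ratios 2 were higher and 6 lower, beside 4.92% and 7.97%, with a median of -0.14. Of the genes named above, Snap25, Thy1 and Prph were at -0.21, -0.11 and -0.59 against the pool and did not pass. The median of the list was -0.01, 0.19 and 0.71 on NS398 replicates 1, 2 and 3, and 1.16, 1.19 and 1.26 on the Injured 4 hr arrays. Each of the 5 calls against the other treatments was lost with at least 1 single NS398 array left out. Without NS398 replicate 1, Nefm, Syp and Sncb lost theirs against the other treatments (limma adjusted p = 0.15, 0.24 and 0.073), without replicate 2 Nefm and Sncb did (limma adjusted p = 0.056 and 0.38), and without replicate 3 Prph, Vamp1 and Syp did (limma adjusted p = 0.065, 0.25 and 0.052). Of the calls against Injured 4 hr, that of Thy1 held in each of these, while those of Nefm, Snap25, Vamp2 and Gad1 were lost in at least 1.

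Markers of the glial cells in the cultures were also counted against the other treatments, where 1.46% of all tested probes were higher and 0.992% lower. Of 15 probes of myelin genes, Pmp22 was higher and 1 of 2 probes of Mag, an adhesion protein of myelin, lower than in the other treatments, the latter by -1.83. Mag was also below Injured 4 hr by -2.76, and its second probe was at 0.60 against the pool and did not pass. The Mag call against the other treatments was lost without NS398 replicate 1 or 2 (limma adjusted p = 0.2 and 0.18), and that against Injured 4 hr without replicate 1 (limma adjusted p = 0.085). Prx, a protein of Schwann cell myelin, read 2.03, 1.97 and 1.96 and exceeded Injured 4 hr by 1.70 (limma adjusted p = 0.041, lost without replicate 1 or 2). Of 19 probes of astrocyte genes, 1 was higher than in the other treatments, that of Vim. Gfap, the astrocyte filament, read -0.22, -0.24 and 0.92 and did not pass. Of 10 microglia and macrophage probes 0 passed there, and Aif1, the standard microglial marker, was at -0.22 against the pool. Against the pool, 4 of 16 myelin, 4 of 20 astrocyte and 4 of 12 microglia and macrophage probes rose. In each list 0 fell, beside 10% higher and 11.3% lower of all tested probes. In corrected ratios 3, 1 and 1 of them were higher and 2, 2 and 0 lower, beside 4.92% and 7.97% of all.

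Of 12 blood probes, 3 rose and 1 fell against the pool, beside 10% and 11.3% of all tested probes. The 3 were globins, again lowest on replicate 1 and highest on replicate 3. The globin gene Hba-a1 read 1.21, 2.28 and 3.21 and Hbb read 0.26, 1.31 and 2.16, and both passed as higher than the pool. The granulocyte genes S100a9 and S100a8 were at 0.64 and -0.34 and did not pass. In corrected ratios 0 of the 12 passed. Of 14 endothelial probes, 2 rose and 2 fell, shares near those of all tested probes. The risen ones were Slc2a1, the glucose transporter of the blood-brain barrier, at 1.38 and Tek, the angiopoietin receptor, at 0.94. The calls of Hbb, Slc2a1 and Tek were lost without NS398 replicate 2 or 3. Against the other treatments 0 of 6 blood and 0 of 9 endothelial probes passed. Whether the share of blood in the cultures bears on the other results was not tested.

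Genes for receptors, channels and enzymes of drug metabolism gave more falls than rises against the DMSO pool. Of all tested probes, 11.3% were lower and 10% higher. Of 44 peptide receptor probes 10 fell and 1 rose, of 93 probes of voltage-gated and potassium channels 12 fell and 3 rose, and of 74 drug-metabolising probes 10 fell and 2 rose. Cytokine and chemokine receptors followed, with 5 of 27 lower and 3 higher. In corrected ratios the drug-metabolising list had 7 probes higher and 6 lower. The peptide receptors had 4 higher and 6 lower with a median of 0.08. Of all tested probes, 4.92% were then higher and 7.97% lower. Against the other treatments 1 of 30 peptide receptor, 1 of 56 channel and 1 of 47 drug-metabolising probes was lower, and 0 were higher. Of the 15 cytokine receptor probes 0 passed. Of all tested probes, 1.46% were higher and 0.992% lower there.

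**Figure D3:**
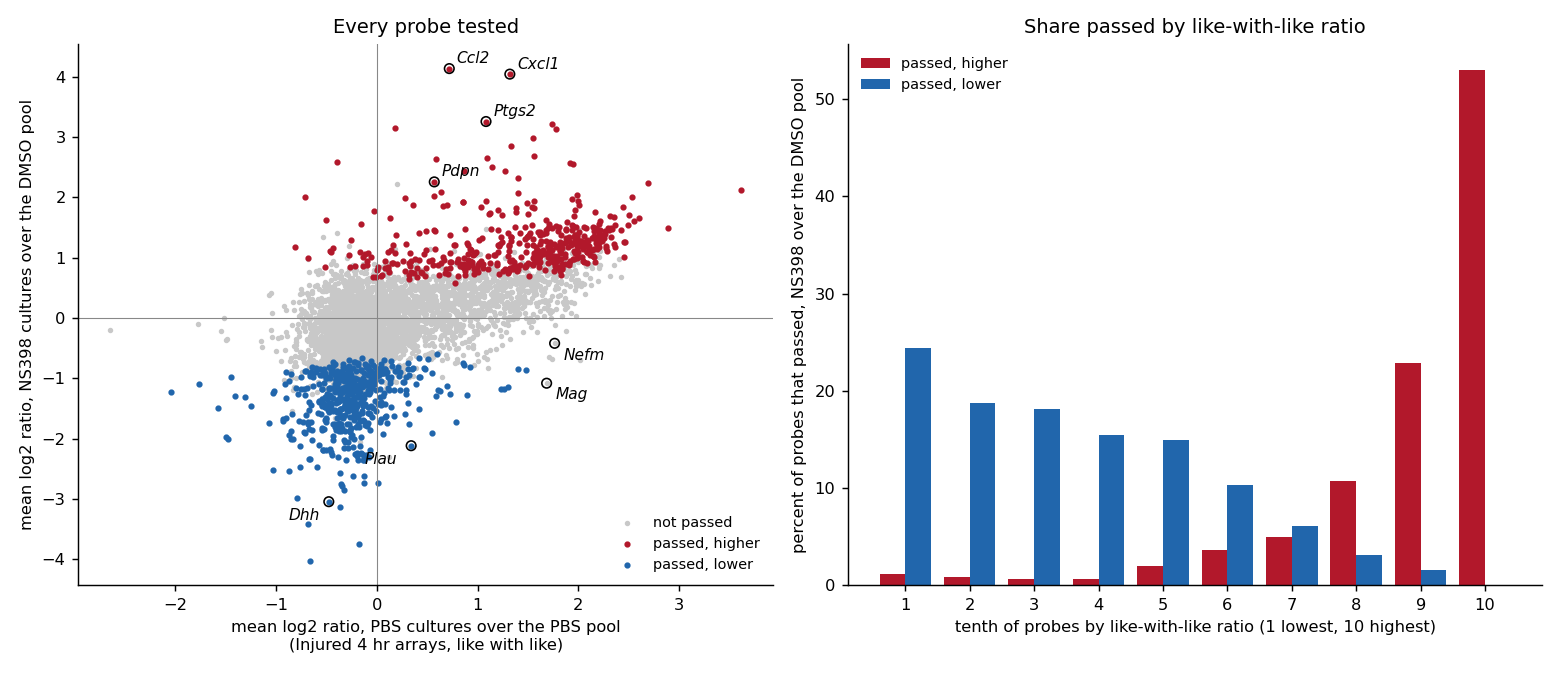
Left, each tested probe by its mean log2 ratio on the Injured 4 hr arrays (horizontal) and on the NS398 arrays (vertical), coloured where it passed against the DMSO pool; right, the percent of probes that passed in each decile of the like-with-like ratio. Higher calls gather at the right of the first panel and lower calls at the left, with Ccl2, Cxcl1 and Ptgs2 far above the trend.

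Counted over the whole array, 450 of 4486 probes were higher and 508 lower than in the DMSO pool, 21.4% together. The Injured 4 hr arrays, which set PBS cultures beside a pool of PBS cultures and so compare like with like, gave nearly the same share: 1059 of 4865 probes passed, 21.8%, of which 1003 were higher (20.6%) and 56 lower (1.15%). The NS398 calls followed that pattern. In the top decile of probes by like-with-like ratio, 237 of 447 were higher in NS398 and 0 lower, and in the lowest decile 5 were higher and 109 lower. Across probes, the NS398 ratios correlated with the like-with-like ratios at r = 0.28, 0.50 and 0.65 on replicates 1, 2 and 3, on arrays that share the probe set and the tissue. Ribosomal protein genes, active in every cell, are an example. Of 69 probes, 51 were higher against the pool, with a median of 1.18, and in corrected ratios 1 was higher and 1 lower, with a median of 0.04. The list's median was 0.36, 1.11 and 2.07 on NS398 replicates 1, 2 and 3, and 1.95, 1.91 and 2.01 on the Injured 4 hr arrays. In ratios from which the trend with the like-with-like ratio and the differences between source plates were removed, 220 of 4468 probes were higher and 356 lower, 12.9% together. Of 953 calls with a corrected value, 404 passed there in the same direction. Leaving out NS398 replicate 2 or 3 lowered the 958 calls to 485 or 483.

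The comparisons that set a second group of arrays against NS398 gave far fewer calls. Against Injured 4 hr, 18 of 4456 probes were higher and 139 lower, 3.52% together, and 57, 85 or 388 passed without NS398 replicate 1, 2 or 3. Against the other treatments, 47 of 3227 were higher and 32 lower, 2.45% together, and 49 or 43 passed without replicate 2 or 3. Of the 3204 probes tested in these comparisons and against the pool, 7 were higher and 10 lower in all 3. The 7 were the 2 Ccl2 probes, Cxcl1, Pdpn, Nupr1, Nes and a probe listed as Rpl-1, of which Pdpn, Nupr1 and Nes were singled out after their values were seen. Pdpn, podoplanin, a surface glycoprotein of meninges and reactive glia, read 2.03, 2.42 and 2.31, above the 12 other treatment arrays, whose highest was 1.19, and the Injured 4 hr arrays, whose highest was 0.88. Nupr1, a stress-induced transcriptional regulator, read 1.50, 1.85 and 2.29, against highest values of 1.22 and 0.79 in those groups. Nes, the filament protein nestin of immature and reactive glia, read 1.01, 0.46 and 1.07, against highest values of 0.15 and -0.42. The difference of Pdpn from Injured 4 hr was 1.69 ± 0.36 (SE), of Nupr1 1.52 ± 0.40 and of Nes 1.36 ± 0.31 (limma adjusted p = 0.015, 0.038 and 0.024). The Nupr1 call was lost with any 1 of the NS398 arrays left out, and that of Nes without replicate 1. The Nes call against the pool was lost without replicate 3 (limma adjusted p = 0.078), and that against the other treatments without replicate 1 or 3 (limma adjusted p = 0.086 and 0.13). The Rpl-1 call against Injured 4 hr was lost with any 1 NS398 array left out (limma adjusted p = 0.068, 0.097 and 0.061).

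Plau, the urokinase plasminogen activator, was among the 10 lower probes. It read -1.98, -2.27 and -2.09 in NS398 cultures, below the 12 other treatment arrays, which ran from -1.91 to -0.24, and below the Injured 4 hr arrays, at 0.39, 0.31 and 0.31. It fell by 2.11 ± 0.25 (SE, n = 3) against the pool, and was lower than Injured 4 hr by -2.45 and than the other treatments by -1.23 (limma adjusted p = 0.00094 and 0.017, the latter 0.1 and 0.065 without replicate 2 and 3). Pdk2, a kinase that restrains pyruvate dehydrogenase, read -0.60, -1.77 and -2.91 and lost its call against the other treatments without replicate 3. The other named ones were Hadha, an enzyme of fatty acid oxidation, Cabp1, a neuronal calcium-binding protein, Rhob, a small GTPase, Scn8a, a neuronal sodium channel, G6pc1, a glucose-6-phosphatase, Cyp2f4, a cytochrome P450, and Sslp1l1. Rhob, Scn8a, G6pc1, Cyp2f4 and Sslp1l1 had 2 values each. The second probes of Scn8a and Rhob, at -0.47 and 0.88 against the pool, did not pass. Those of Cyp2f4 were -6.50 and -0.98. Hadha and Cabp1 lost calls when single NS398 arrays were left out, in the case of Hadha all 3 without replicate 1.

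**Figure D4:**
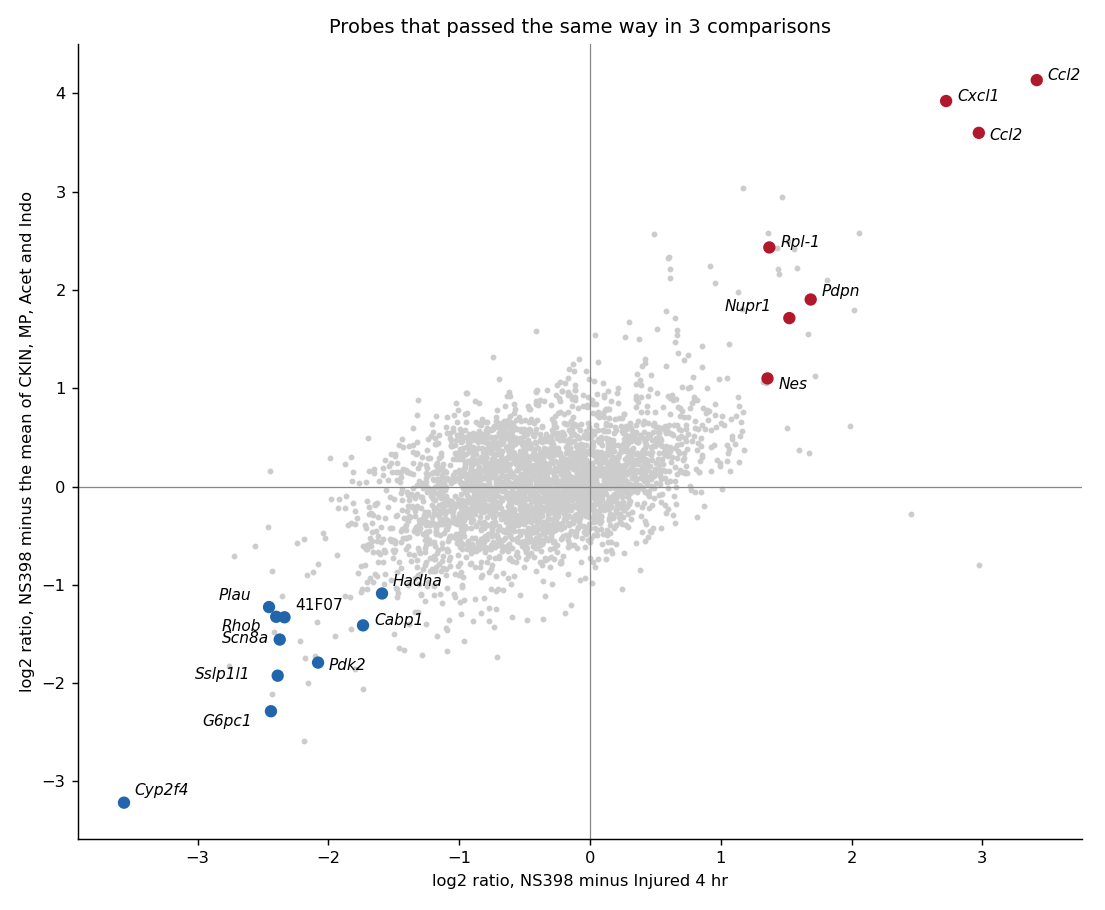
Log2 ratio of every probe tested in both comparisons, NS398 minus Injured 4 hr (horizontal) against NS398 minus the mean of the other treatments (vertical); coloured points passed the same way in these and against the DMSO pool. The 7 higher probes are red, led by Ccl2 and Cxcl1, and the 10 lower ones blue.

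The largest falls against the DMSO pool rested on fewer values than the largest rises. Of the 15 largest falls, 9 had values on only 2 arrays and 10 spanned more than 2 log2 units between arrays, against 0 and 2 of the 15 largest rises. Over all calls, 116 of 508 lower probes and 10 of 450 higher probes had 2 values. Falls measured on each array included the developmental signals Dhh, at -2.25, -3.28 and -3.59, and Wnt4, at -2.15, -2.44 and -3.03, and the transcription factor Neurog3, at -2.47, -1.96 and -4.51. These were low in the other treatments too, where the medians were -2.37, -1.95 and -2.37, and the differences from them, -0.61, -0.56 and -0.53, did not pass (limma adjusted p = 0.5, 0.48 and 0.57). They did pass against Injured 4 hr, at -2.56, -1.67 and -2.19. The calcium channel subunit Cacna1a and 1 of the probes of Ntf3, a neurotrophin, followed the same course, at -2.28 and -2.05 against the pool.

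Barhl1, a homeobox transcription factor, was among the largest rises, at 4.81, 1.04 and 1.89, and its rise was shared. The other treatments ran from 2.07 to 4.59, the difference from them was -0.80 (limma adjusted p = 0.54), and the Injured 4 hr arrays lay at -0.05, -0.62 and -0.52.

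Set beside indomethacin, which inhibits both cyclooxygenases and was given in another vehicle, NS398 differed in few genes, 15 of 3681 probes higher, 0.407%, and 1 lower, 0.0272%, or 0.435% together. Ccl2, Cxcl1 and Ptgs2 exceeded Indo by 3.55, 3.35 and 2.57 (limma adjusted p = 0.00034, 0.0013 and 0.0012), and Cxcl2, at 1.28, did not pass (limma adjusted p = 0.38). With no doses in the labels, the sizes compare these cultures and not equal doses. Without NS398 replicate 1 or 3 the count was 57 or 8.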

How the data were processed

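The authors deposited 1 log2 ratio per probe and array, sample over pool in title order. For dyes, scanner, background correction and normalization: not given in the sources used here. Blank spots stayed missing, 52 Gapdh spots were averaged, and each array was centred on its median. Of 5376 probes, 4962 had a value and 4423 one gene symbol, and 4375 matched RefSeq by gene ID. The number of arrays limits the precision, and nothing says that replicates are separate cultures, so p-values may measure technical spread only.

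One limma model (version 3.58.1, R 4.3.3) with a coefficient per group was fitted to all 21 arrays, with 2 or more values required in each compared group and Benjamini-Hochberg adjustment over all tested probes. It gave 4 comparisons: NS398 against the DMSO pool, minus Indo, minus Injured 4 hr, and minus the mean of CKIN, MP, Acet and Indo. The arrays of the other groups hold another pool, so vehicle and pool differ there too. Corrected ratios had a loess trend (span 0.4) on the mean Injured 4 hr ratio removed and plates of at least 20 probes centred. The test against the DMSO pool was run on simulated ratios with known changes and independent noise. These held no error of the pool and no trend with the Injured 4 hr ratio, so they cannot show how the test behaves under either.

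Genes were named by a rule: the 15 largest rises and falls with 1 sign on every measured array, the 4 largest passing members, at most, of each of the 38 lists, a panel of inflammatory genes, and the 5 largest in each direction of the other comparisons. Csf3, Ccl5, Il7, Tgfb2, Tgfb3, Csf1, Akr1b1, Nfkb1, Sele, Irf1, Col1a2, Timp1, Igfbp6, Lox, the neuronal genes, the second Mag probe, Pdpn, Nupr1, Nes, Hadha, Cabp1 and Rhob are outside it and were chosen after their values were seen. Members and lists were chosen with earlier results of these data known. Alternatives covered scaling, missing values, left-out replicates, the arrays in the fit and blocks. The array set used as a block is a split by missing spots, and no label names it. It set the 10 arrays with more than 1100 missing spots, 1 of them an NS398 array, apart from the others.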

Additional observations from a re-analysis of the deposited data

Results flagged for a closer look

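NS398 and indomethacin inhibit the same enzymes and were each set beside their own vehicle pool, and 16 probes differed between them by limma's test of the difference itself. Of these, 15 were higher in NS398. Ccl2 differed by 3.55 and 3.02 on its 2 probes, Cxcl1 by 3.35, Ptgs2 by 2.57, Mgp by 2.56 and Dcn by 2.31. The probe listed as Rpl-1 differed by 2.44 and a probe without a gene symbol, 49D05, by 2.79. Ocm, a calcium-binding protein, differed by 2.27, Ugdh, which makes a precursor of matrix polysaccharides, by 2.24, Scn7a, a sodium channel, by 2.22, and Myc by 2.22. Pdpn differed by 1.74, Arhgap17, a regulator of small GTPases, by 1.71, and the cell surface proteoglycan Sdc4 by 1.58. Lcn2, an iron-binding protein of inflammation, was the lower one, by -2.29. Adjusted p-values in limma ran from 0.00034 to 0.037. Calls were lost without NS398 replicate 2 or 3 for Mgp, Dcn, Myc, Pdpn, Arhgap17 and Sdc4, without replicate 2 for Scn7a, and without replicate 3 for Ocm and Lcn2. In deposited ratios that were not centred 13 of the 16 calls were lost, Ptgs2 among them at 1.73 (limma adjusted p = 0.092), and 10 were lost with the array set as a block and 10 with only the compared arrays in the fit.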

How the results depend on the processing

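Against the DMSO pool the 958 calls, 47% of them higher, became 1977 in deposited ratios that were not centred (2.68% higher), 576 in corrected ratios (38.2% higher) and 131 with only the NS398 arrays in the fit, which leaves fewer arrays for the spread. Quantile normalization put 57.9% of the calls higher. Leaving out 1 NS398 array gave 483 to 958 calls. The 16 calls against Indo became 42 with quantile normalization, 36 in corrected ratios, 45 where 1 value sufficed, 8 with the array set as a block and 6 with only the compared arrays, and 8 to 57 with 1 NS398 array left out. In deposited ratios 15 passed, 20% of them higher. The 157 calls against Injured 4 hr became 293 in deposited ratios (99.7% higher), 875 after scale normalization and 103 after quantile normalization (35.9% higher), and 57 to 388 with 1 array left out. The array set as a block put 25.3% higher. The 79 calls against the other treatments became 295 in deposited ratios (8.14% higher), 151 in corrected ratios and 47 where all 3 values were required, and 43 to 68 with 1 array left out. The array set as a block put 36.8% higher. Apart from the construction named, the cause was not tested.

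No label says that the numbers pair the arrays. Deviations of same-numbered NS398 and Indo, MP or Acet arrays correlated between -0.23 and 0.36 across probes, highest for number 1 with MP and with Acet. These correlations do not decide whether same-numbered arrays belong together. With a replicate block, 1002, 23, 167 and 74 probes passed in the 4 comparisons, and among named genes Il1a, Scn8a, Hadha, Rhob and Sslp1l1 lost their calls against the other treatments and Hadha that against the pool.

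Some pool ratios changed sign. In deposited ratios these were Hspa1a probe 52E12 at -0.0056, Il1b probe 25H04 at -0.21, Il6 at -0.017, the second Mag probe at -0.28, Nes at -0.036, Myc at -0.36, Gfap at -0.73, Tgfb2 probe 29G03 at -0.21 and S100a9 at -0.24. Gad1 was then 0.054 above Injured 4 hr. In corrected ratios they were the second Mag probe at -0.52, Gfap at -0.85, Aif1 at 0.14, Hbb at -0.021 and Ptger2 at 0.17. With the array set as a block Gfap was -0.088 and Ptger3 0.12. With 1 NS398 array left out, Tnf ran from -0.85 to 0.32, Igfbp6 from -0.45 to 0.058 and Gfap from -0.23 to 0.35.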
